A study of Danio rerio with 24 samples.

Results

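In zebrafish retinal pigment epithelium (RPE) after injury, 10 genes that encode chemokines or macrophage recruiting cytokines were followed: il34, csf1a, csf1b, cxcl8a, cxcl18a.1, cxcl18b, cxcl12a, cxcl12b, cxcl14 and ccl25b. They were taken by name from both deposited gene tables, which list 25281 genes, and all 10 were found. Of these, 9 passed the filter on low counts and were tested, and csf1b did not pass.

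The larvae carried rpe65a:nfsB-eGFP, a transgene in which the promoter of rpe65a, an RPE gene of the visual cycle, drives bacterial nitroreductase fused to eGFP. Nitroreductase turns metronidazole (MTZ) into a toxin, so the cells that express it are ablated. All groups carried the transgene, were crossed to the AB strain and were kept in 1-phenyl-2-thiourea, which blocks melanin synthesis, from 6 hours to 5 days post-fertilization (dpf). Rapamycin at 2 µM, an inhibitor of the kinase mTOR, or its vehicle dimethyl sulfoxide (DMSO) was given from 4 dpf. Ablated larvae (MTZ+) received 10 mM MTZ for 24 h from 5 dpf, and unablated larvae (MTZ-) received none. Eyes were taken at 2 days post-injury (dpi), when larvae were 7 dpf, and at 4dpi, when they were 9 dpf. The 8 groups were MTZ+ rapamycin, MTZ+ DMSO, MTZ- rapamycin and MTZ- DMSO at each time, with 3 libraries each and 24 in all. Each library came from eGFP+ cells that excluded propidium iodide, at most 1000 sorted cells from about 80 pooled eyes of 40 larvae. In MTZ+ larvae the sorted eGFP+ cells could therefore include RPE that was not ablated and RPE that regenerated. The authors report that ablation takes the central part of the RPE. They also allow for slight impurity of the sorted cells. No library came from MTZ-treated larvae without the transgene, so MTZ itself and ablation cannot be told apart.

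Chemokines are small secreted proteins that direct the movement of leukocytes through membrane receptors coupled to G proteins. Il34 and the Csf1 proteins are the ligands of the Csf1 receptor, on which macrophages and microglia depend for survival and for entry into tissues. The RPE is the pigmented layer behind the photoreceptors that takes up their shed outer segments, and in zebrafish it can regenerate after ablation, with leukocytes entering the injury site.

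Total counts per library lay between 20607731 and 37189527, with a median of 32437827.5, and a floor of 3 counts was worth 0.0807 to 0.146 CPM (counts scaled to a common library total). At 2dpi the totals were 22230490 to 23195175 in MTZ+ DMSO libraries and 30099569 to 34407258 in the other groups. At 4dpi replicates 1, 2 and 3 had 20607731, 30716905 and 20950454 counts in MTZ+ DMSO, and 33669100, 23743339 and 37189527 in MTZ+ rapamycin. RPE markers were found in all groups. Their sums were lower in MTZ+ than in MTZ- libraries with DMSO at both times and with rapamycin at 2dpi. The summed CPM of 9 RPE markers lay between 16041 and 31592 in MTZ+ DMSO libraries, against 69058 to 87353 in MTZ- DMSO libraries, at 2dpi. At 4dpi the sums were 25125 to 46118 CPM in MTZ+ DMSO libraries and 69483 to 79877 CPM in MTZ- DMSO libraries. With rapamycin at 2dpi they were 38551 to 67918 CPM in MTZ+ and 79586 to 118696 CPM in MTZ- libraries. With rapamycin at 4dpi they overlapped, at 18650 to 80075 CPM in MTZ+ and 58325 to 80263 CPM in MTZ- libraries. In the names of the raw data the letters of MTZ+ DMSO and MTZ+ rapamycin were exchanged for replicate 2 at 4dpi, and the labels were kept here. The total counts of those libraries went with the letter and the summed Müller glia markers went with the label, so fold changes of the 10 genes that use MTZ+ larvae at 4dpi, and calls of other genes there, are given with and without both libraries. Levels below are CPM scaled by the trimmed mean of M-values (TMM) over all 24 libraries, as mean ± SD of 3 libraries. A gene was called changed when edgeR's quasi-likelihood test gave an absolute log2 fold change above 1 and a Benjamini-Hochberg adjusted p under 0.05 over all genes tested, and the larger group mean was at least 1 TPM (transcripts scaled to gene length and library total). In pooled cells like these, fewer cells of a type and less RNA per cell cannot be told apart. The replicates of a group carry separate dates in the labels.

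**Figure D1:**
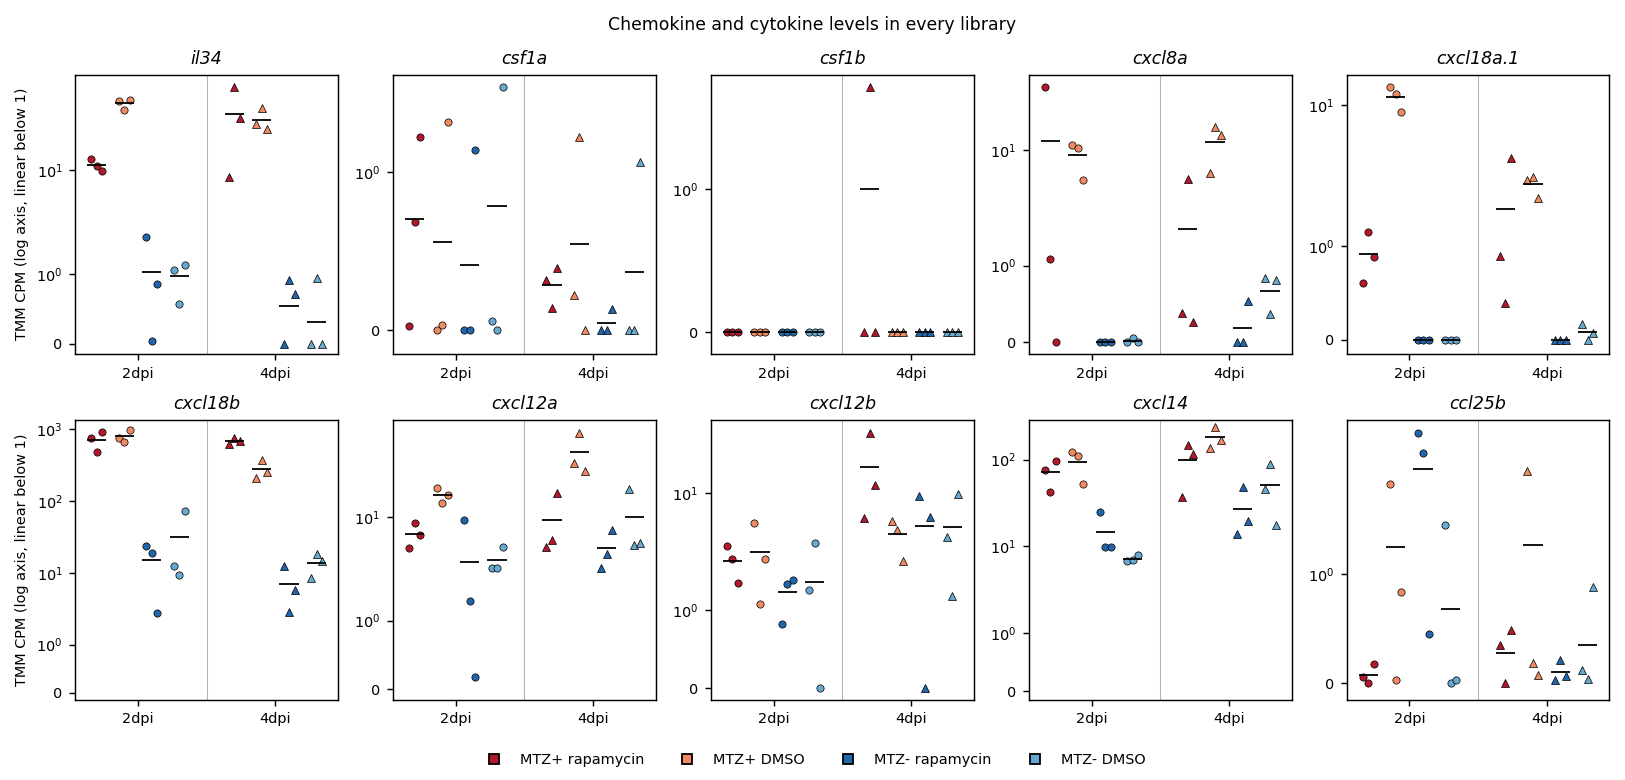
Level of each of the 10 genes in every library, in TMM CPM on a log axis that is linear below 1 CPM. Columns run from MTZ+ rapamycin and MTZ+ DMSO to MTZ- rapamycin and MTZ- DMSO, circles are 2dpi, triangles 4dpi and bars the mean of 3 libraries. cxcl18b stands between 208.5 and 987 CPM in all MTZ+ libraries, above its highest MTZ- library at 73.6 CPM, while csf1b is at 0 counts in all but 1 library.

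Per transcript length, cxcl18b was the most abundant of these genes in the ablated eyes. At 2dpi it averaged 1427 ± 140 TPM in MTZ+ DMSO libraries (SD, n = 3) and was 82nd among 21680 genes above 0, against 48.9 ± 53.1 TPM and place 2327 of 20813 in MTZ- DMSO libraries. In the same MTZ+ DMSO libraries cxcl14 averaged 111.2 TPM, il34 48.8 ± 3.17 TPM, cxcl18a.1 28.5 ± 7.68 TPM, cxcl8a 25.6 ± 10.3 TPM and cxcl12a 10.6 TPM. Among neighbours in that order, the library ranges of cxcl18a.1 and cxcl8a overlapped. cxcl12b at 2.15 TPM, ccl25b at 0.839 TPM and csf1a at 0.405 TPM were low, and csf1b was at 0. At 4dpi the order in MTZ+ DMSO libraries began with cxcl18b at 491 TPM and cxcl14 at 201.6 TPM, followed by il34 at 33.1 TPM, cxcl8a at 32.3 TPM, cxcl12a at 27.04 TPM and cxcl18a.1 at 6.502 TPM. There the ranges of il34 and cxcl8a, and of cxcl8a and cxcl12a, overlapped. In MTZ- DMSO libraries at 4dpi cxcl14 led at 44.3 TPM and cxcl18b followed at 18.9 TPM, with overlapping ranges.

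To ask which of these genes changed in RPE that had been injured, MTZ+ and MTZ- larvae with DMSO were compared at 2dpi. Of the 9 tested genes, 5 were called higher in MTZ+ (il34, cxcl8a, cxcl18a.1, cxcl18b and cxcl14) and 0 were called lower. Over all 17536 genes tested, 11.3% were called higher and 9.9% lower. The median log2 fold change of the 9 genes was 3.74, against 0.04 over all genes tested. The genes were chosen with earlier results of these data known. At 2dpi cxcl18a.1 had 0 counts in MTZ- libraries, and cxcl8a had 2 in MTZ- DMSO and 0 in MTZ- rapamycin libraries. Both could pass the filter on low counts only through MTZ+ libraries. Shares and medians set beside those of all genes, here and below, therefore describe the set and do not test it. Of the 9, 6 had an edgeR unadjusted p under 0.05, as had 6296 of the 17536 genes tested.

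Among the ligands of the Csf1 receptor, il34 (chromosome 18, 18527170 to 18543358, GRCz11) was the one that changed. Its level was 46.3, 37.3 and 47.3 CPM in MTZ+ DMSO libraries, against 1.09, 0.575 and 1.23 CPM in MTZ- DMSO libraries. The groups were far apart, at 43.6 ± 5.54 CPM and 0.966 ± 0.346 CPM (SD, n = 3 each), and il34 rose by a log2 fold change of 5.53 ± 0.86 (SE; edgeR adjusted p = 0.000585). Of the pair of csf1 genes, csf1a was near the floor, with 0, 0.0329 and 1.64 CPM in MTZ+ DMSO libraries and 0.0590, 0 and 2.29 CPM in MTZ- DMSO libraries. In each group 1 library held almost all csf1a counts, and the log2 fold change was -0.45 ± 2.31 (edgeR adjusted p = 0.915). csf1b had 0 counts in every library at 2dpi.

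The 3 chemokines of the Cxcl8 and Cxcl18 groups were called higher. cxcl18b (chromosome 1, 49222164 to 49225890), in zebrafish a ligand of Cxcr2 that draws neutrophils, stood at 763, 662 and 987 CPM in MTZ+ DMSO libraries. In MTZ- DMSO libraries it was at 12.3, 9.25 and 73.6 CPM, replicate 3 being the high one, and the groups did not overlap. The rise was 4.70 ± 0.93 on the log2 scale (edgeR adjusted p = 0.00368), and 6.24 without MTZ- DMSO replicate 3 (adjusted p = 0.000703).

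cxcl18a.1, another member of the fish Cxcl18 group, was at 13.3, 11.97 and 8.90 CPM in MTZ+ DMSO libraries and at 0 counts in all 3 MTZ- DMSO libraries. Its mean was at least 127-fold higher in MTZ+ when set against the floor of 3 counts per library (edgeR adjusted p = 9.36e-05). That bound leaves out the spread between libraries. The gene (chromosome 13, 30696286 to 30699369, plus strand) overlaps rassf4a on the minus strand, and whether strand was used in counting is not given in the sources used here, so reads of the pair cannot be told apart. rassf4a itself was counted at 1.33 ± 0.360 CPM in MTZ+ DMSO libraries and 0.922 ± 0.111 CPM in MTZ- DMSO libraries. cxcl8a (chromosome 1, 14253118 to 14254166), a neutrophil attractant that acts through Cxcr1 and Cxcr2, was at 11.1, 10.5 and 5.55 CPM in MTZ+ DMSO libraries. In MTZ- DMSO libraries it had 2 counts in all, from replicate 2. With 760 counts in MTZ+ the ratio was 466, with an exact 95% counting interval of 128.6 to 3857. That interval leaves out the spread between libraries, and the edgeR log2 fold change of cxcl8a was 8.62 ± 2.41 (SE). Its call was near the threshold (edgeR adjusted p = 0.0287) and was lost in 5 of 6 fits that left out 1 library, with adjusted p from 0.0464 to 0.113 over the 6.

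cxcl14 (chromosome 14, 24400799 to 24410673), which in mammals attracts monocytes and dendritic cells, was at 121.1, 111.1 and 52.7 CPM in MTZ+ DMSO libraries. In MTZ- DMSO libraries it was steady at 6.78, 6.95 and 7.91 CPM. The rise was 3.74 ± 0.46 on the log2 scale (edgeR adjusted p = 0.000109) and the groups were well apart.

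The Cxcl12 genes and ccl25b were not called at 2dpi. cxcl12a (chromosome 13, 30804367 to 30819715), the ligand of Cxcr4b that guides migrating cells in zebrafish, was at 19.3, 13.7 and 16.2 CPM in MTZ+ DMSO libraries and at 3.21, 3.24 and 5.10 CPM in MTZ- DMSO libraries. The groups did not overlap, but the log2 fold change of 2.12 ± 0.88 had an edgeR adjusted p of 0.0998. That p ran from 0.00332 to 0.230 over the alternatives tried, and DESeq2 (adjusted p = 0.0433) and a fit of the compared groups alone (0.00332) made the call. cxcl12b (chromosome 22, 26929554 to 26945493), the ligand of Cxcr4a, was at 1.12 to 5.52 CPM in MTZ+ DMSO libraries and 0 to 3.74 CPM in MTZ- DMSO libraries, and the groups overlapped (log2 fold change 0.86 ± 1.16, edgeR adjusted p = 0.649). ccl25b (chromosome 11, 6259048 to 6265723), whose mammalian counterpart is the ligand of CCR9, was at 0.0329 to 3.57 CPM and 0 to 2.00 CPM in those groups (1.15 ± 1.74, edgeR adjusted p = 0.689). The summed level of 7 mesenchyme markers was 22.4 to 27.5 CPM in MTZ+ DMSO libraries and 4.36 to 9.05 CPM in MTZ- DMSO libraries at 2dpi, with 2 of the 7 called higher (11.3% of all genes). Their part in these results was not tested.

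**Figure D2:**
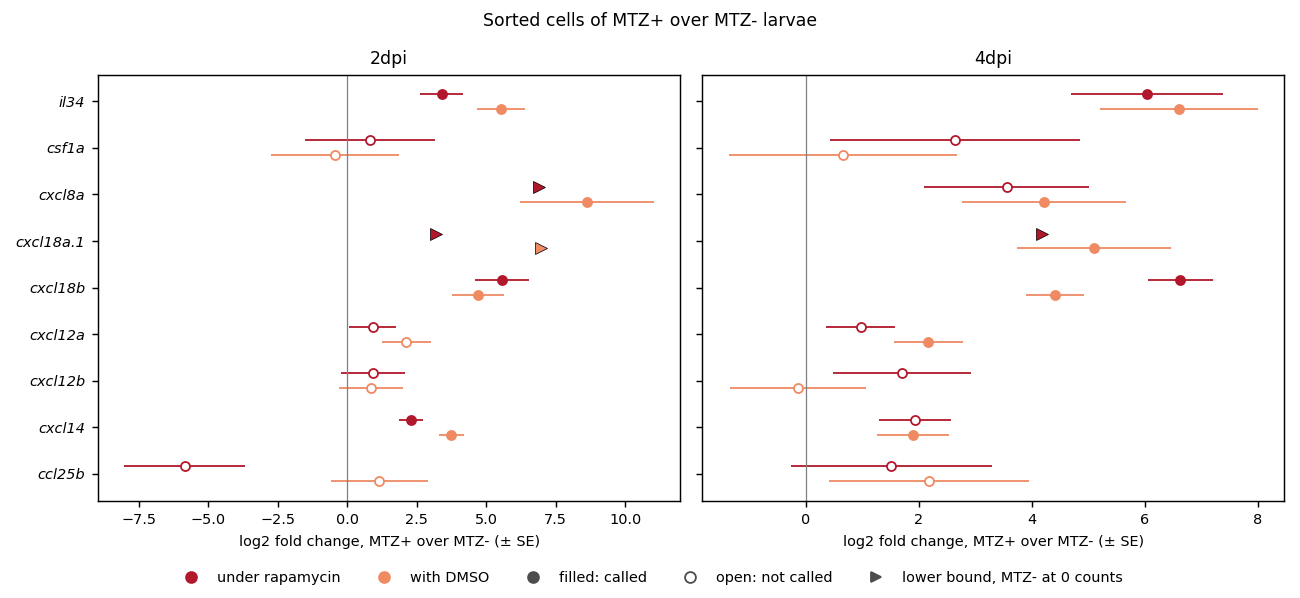
Log2 fold change of MTZ+ over MTZ- with rapamycin (dark red) and with DMSO (orange) at 2dpi and 4dpi, with SE. Filled points passed the call rule and right-pointing triangles mark lower bounds where MTZ- libraries had 0 counts; csf1b was not tested. il34, cxcl18b and cxcl18a.1 are called in all 4 comparisons, and the log2 fold changes of il34 and cxcl18b run from 3.40 to 6.63.

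At 4dpi the comparison with DMSO called 6 of the 9 genes higher in MTZ+, the 5 genes above and cxcl12a, and 0 lower. Over all 17515 genes tested, 14.3% were called higher and 9.14% lower. The median log2 fold change was 2.19 over the 9 genes and 0.27 over all genes, and 0.20 to 0.26 over all genes under the other scalings. The median of the 9 is the value of ccl25b, which was not called and had 95 of its 104 MTZ+ DMSO counts in replicate 1. Without both libraries whose letters were exchanged, 3 of the 9 genes were called higher: il34, cxcl18b and cxcl18a.1. Fits that left out 1 library at a time called 2 to 4, and 2 without MTZ+ DMSO replicate 2 or without MTZ- DMSO replicate 3.

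il34 was at 27.3, 39.0 and 24.4 CPM in MTZ+ DMSO libraries at 4dpi. In MTZ- DMSO libraries it was at 0, 0.9498 and 0 CPM, so that replicate 2 alone gave that group its counts. The log2 fold change was 6.61 ± 1.40 (edgeR adjusted p = 0.00554), 7.52 with a replicate block and 6.38 without the exchanged libraries (adjusted p = 0.0162). Without MTZ- DMSO replicate 2 that group was at 0 counts, and no fold change could be estimated (edgeR adjusted p = 0.00496). Replicate 2 had 26 counts, so the libraries at 0 counts set no upper limit on the group.

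cxcl18b was at 208.5, 375 and 254 CPM in MTZ+ DMSO libraries at 4dpi, against 8.50, 18.3 and 14.8 CPM in MTZ- DMSO libraries. The groups were well apart, the rise was 4.41 ± 0.52 on the log2 scale (edgeR adjusted p = 0.000359), and it was 4.14 (0.0015) without the exchanged libraries. cxcl18a.1 was at 2.93, 3.06 and 2.18 CPM in MTZ+ DMSO libraries, against 0.168, 0 and 0.0734 CPM in MTZ- DMSO libraries. It rose by 5.11 ± 1.37 (edgeR adjusted p = 0.0208), a call lost without MTZ- DMSO replicate 3 (0.0621) or MTZ+ DMSO replicate 2 (0.0512) and kept without both exchanged libraries (5.01, 0.0415).

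The other calls at 4dpi rested on fewer settings. cxcl8a was at 6.35, 15.8 and 13.5 CPM in MTZ+ DMSO libraries, against 0.842, 0.365 and 0.808 CPM in MTZ- DMSO libraries. The groups did not overlap (log2 fold change 4.21 ± 1.45, edgeR adjusted p = 0.0474), but the call was lost with a replicate block (3.88, 0.0780), without the exchanged libraries (3.95, 0.0653) and in each of the 6 fits that left out 1 library. cxcl14 was at 136.1, 237.8 and 167.2 CPM in MTZ+ DMSO libraries, against 46.1, 89.9 and 17.6 CPM in MTZ- DMSO libraries. Its rise of 1.89 ± 0.63 (edgeR adjusted p = 0.0422) was lost in 5 of 6 such fits and without the exchanged libraries (1.64, adjusted p = 0.106). Leaving out MTZ- DMSO replicate 2 kept it, at 2.58.

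cxcl12a was at 33.2, 66.0 and 28.3 CPM in MTZ+ DMSO libraries at 4dpi, against 18.9, 5.37 and 5.66 CPM in MTZ- DMSO libraries. All MTZ+ libraries were above all MTZ- libraries, and cxcl12a rose by 2.17 ± 0.62 (edgeR adjusted p = 0.0220). The call was lost without the exchanged libraries (1.70, adjusted p = 0.0787) and without MTZ+ DMSO replicate 2, MTZ- DMSO replicate 2 or MTZ- DMSO replicate 3. Mesenchyme is a connective tissue around the eye. The summed level of its 7 markers was 44.3 to 73.6 CPM in MTZ+ DMSO libraries and 5.63 to 7.12 CPM in MTZ- DMSO libraries, where 1 marker had 0 counts. Replicate 1 of MTZ- DMSO, the high one for cxcl12a at 18.9 CPM, had a sum of 6.78 CPM. At 4dpi 1 of the 5 markers that were tested was called higher (14.3% of all genes). Their part in the result was not tested. The other 3 genes were not called: cxcl12b (-0.14 ± 1.20, edgeR adjusted p = 0.944), ccl25b (2.19 ± 1.77, 0.378) and csf1a (0.65 ± 2.02, 0.835). Without the exchanged libraries their values were -0.20, 2.71 and -1.61, also not called.

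Under rapamycin the same comparison of MTZ+ with MTZ- larvae called 5 of the 9 genes higher at 2dpi: il34, cxcl8a, cxcl18a.1, cxcl18b and cxcl14. Over all genes tested, 8.68% were called higher and 5.73% lower, and the median log2 fold change was 2.29 over the 9 genes and 0.02 over all genes. cxcl18b was at 743, 486 and 912 CPM in MTZ+ rapamycin libraries, against 23.98, 19.1 and 2.77 CPM in MTZ- rapamycin libraries, and rose by 5.56 ± 0.97 (edgeR adjusted p = 0.00251). cxcl14 was at 76.0, 42.6 and 96.9 CPM, against 24.7, 9.88 and 9.96 CPM in MTZ- rapamycin libraries. It rose by 2.29 ± 0.43 (edgeR adjusted p = 0.00271), with replicate 1 the high library of MTZ-.

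il34 was at 12.8, 10.8 and 9.74 CPM in MTZ+ rapamycin libraries at 2dpi, against 2.27, 0.0333 and 0.861 CPM in MTZ- rapamycin libraries. The groups did not overlap and il34 rose by 3.40 ± 0.78 (edgeR adjusted p = 0.00973), or by 4.68 without MTZ- rapamycin replicate 1 (0.0025). A fit of the compared groups alone did not call it (0.0571). cxcl18a.1 was at 0.603, 1.26 and 0.878 CPM in MTZ+ rapamycin libraries and at 0 counts in the 3 MTZ- rapamycin libraries. Its MTZ+ mean was at least 9.12-fold higher when set against the floor of 3 counts (edgeR adjusted p = 0.000826).

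cxcl8a was at 35.1, 1.13 and 0 CPM in MTZ+ rapamycin libraries at 2dpi, and at 0 counts in MTZ- rapamycin libraries. Replicate 1 carried nearly all of its counts and the groups overlapped at 0. Its call (edgeR adjusted p = 0.0255) was lost without any 1 of the MTZ- rapamycin libraries (0.0655 to 0.0767). cxcl12a was at 5.06, 8.76 and 6.76 CPM in MTZ+ rapamycin libraries, against 9.30, 1.53 and 0.187 CPM in MTZ- rapamycin libraries, and was not called (log2 fold change 0.92, edgeR adjusted p = 0.532). Without MTZ- rapamycin replicate 1 it was called higher (3.02, adjusted p = 0.0152). ccl25b was at 0 to 0.176 CPM in MTZ+ rapamycin libraries, against 7.35, 5.52 and 0.449 CPM in MTZ- rapamycin libraries. It did not pass (-5.86 ± 2.17, edgeR adjusted p = 0.0852), while DESeq2 (0.00597) and a fit of the compared groups alone (0.0291) called it lower.

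At 4dpi under rapamycin 3 of the 9 genes were called higher in MTZ+ (il34, cxcl18a.1 and cxcl18b), while 8.63% of all genes tested were called higher and 6.94% lower. The median log2 fold change was 2.63 over the 9 genes and 0.03 over all genes. That median is the value of csf1a, which was not called and had 30 counts in MTZ+ rapamycin and 4 in MTZ- rapamycin libraries. cxcl18b was at 610.3, 757 and 675 CPM in MTZ+ rapamycin libraries, against 12.4, 2.85 and 5.82 CPM in MTZ- rapamycin libraries. This rise of 6.63 ± 0.58 (edgeR adjusted p = 0.000283; 6.56 and 0.0019 without the exchanged libraries) had the smallest standard error of the 8 given for this comparison. il34 was at 8.57, 62.0 and 31.6 CPM in MTZ+ rapamycin libraries, against 0, 0.914 and 0.715 CPM in MTZ- rapamycin libraries. It rose by 6.04 ± 1.34 (edgeR adjusted p = 0.0101), and by 5.29 (0.0454) without the exchanged libraries, 1 of which was the highest for il34. cxcl18a.1 was at 0.892, 0.388 and 4.18 CPM in MTZ+ rapamycin libraries and at 0 counts in MTZ- rapamycin libraries. The MTZ+ mean was at least 18.2-fold higher when set against the floor of 3 counts (edgeR adjusted p = 0.00881, and 0.0200 without the exchanged libraries). Replicate 3 was above the others, and the bound leaves out this spread between libraries.

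cxcl14 and cxcl8a fell short at 4dpi under rapamycin. cxcl14 was at 37.6, 148.2 and 115.1 CPM in MTZ+ rapamycin libraries, against 13.9, 48.0 and 19.9 CPM in MTZ- rapamycin libraries, and the groups overlapped. The log2 fold change of 1.94 ± 0.63 (edgeR adjusted p = 0.0517) passed with a replicate block (2.00, 0.0149) and with DESeq2 (0.0106), but not without the exchanged libraries (1.56, 0.176). cxcl8a was at 0.382, 5.60 and 0.272 CPM in MTZ+ rapamycin libraries, against 0, 0 and 0.545 CPM in MTZ- rapamycin libraries, with its highest value in replicate 2, an exchanged library. Its log2 fold change was 3.55 ± 1.46 (edgeR adjusted p = 0.109; DESeq2 0.0293) and 0.93 without the exchanged libraries. cxcl12a, cxcl12b, csf1a and ccl25b were not called, with edgeR adjusted p from 0.282 to 0.592, and from 0.260 to 0.769 without the exchanged libraries. csf1b had 85 counts (2.99 CPM, 4.09 TPM) in MTZ+ rapamycin replicate 2 at 4dpi and 0 counts in the other 23 libraries. That library is an exchanged one and had the highest summed macrophage and microglia markers of all, 61.9 CPM. The part of these markers in the csf1b counts was not tested.

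Whether rapamycin changed these genes in ablated eyes was read from MTZ+ rapamycin against MTZ+ DMSO libraries. At 2dpi 0 of the 9 genes were called by edgeR (0.53% of all genes in either direction) and DESeq2 called 1. An edgeR unadjusted p under 0.05 was found for 2 of the 9, and for 2374 of all 17536 genes tested. The median log2 fold change was -0.39, against 0.02 over all genes. The libraries of MTZ+ rapamycin and MTZ+ DMSO enter both this comparison and those above, so the values are not independent.

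cxcl18a.1 came nearest. It was at 0.915 ± 0.331 CPM in MTZ+ rapamycin libraries and 11.4 ± 2.27 CPM in MTZ+ DMSO libraries at 2dpi (SD, n = 3 each), lower in 3 of 3 pairs of the same replicate number and without overlap. The log2 fold change was -3.61 ± 0.63 (edgeR unadjusted p = 0.000326, adjusted p = 0.0507), and DESeq2 called it lower (adjusted p = 8.67e-08), with up to 0.182 under the other alternatives. il34 was at 11.1 ± 1.56 CPM in MTZ+ rapamycin libraries and 43.6 ± 5.54 CPM in MTZ+ DMSO libraries. The groups did not overlap, the log2 fold change was -1.959 ± 0.72 (edgeR unadjusted p = 0.0185, adjusted p = 0.250), and the adjusted p ran from 0.0623 to 0.452 over the alternatives.

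cxcl12a was at 6.86 ± 1.85 CPM in MTZ+ rapamycin libraries and 16.4 ± 2.82 CPM in MTZ+ DMSO libraries at 2dpi, again without overlap (-1.24 ± 0.85, edgeR adjusted p = 0.590). The mesenchyme sums were 9.26 to 112.6 CPM and 22.4 to 27.5 CPM in the same groups, and their part was not tested. The most abundant genes were much closer between the groups: the log2 fold change was -0.16 ± 0.80 for cxcl18b (edgeR adjusted p = 0.966) and -0.39 ± 0.41 for cxcl14 (0.769). cxcl8a had 0.41 ± 1.57, cxcl12b -0.23 ± 1.15, csf1a 0.36 ± 2.32 and ccl25b -4.29 ± 2.05, with edgeR adjusted p from 0.388 to 0.974.

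**Figure D3:**
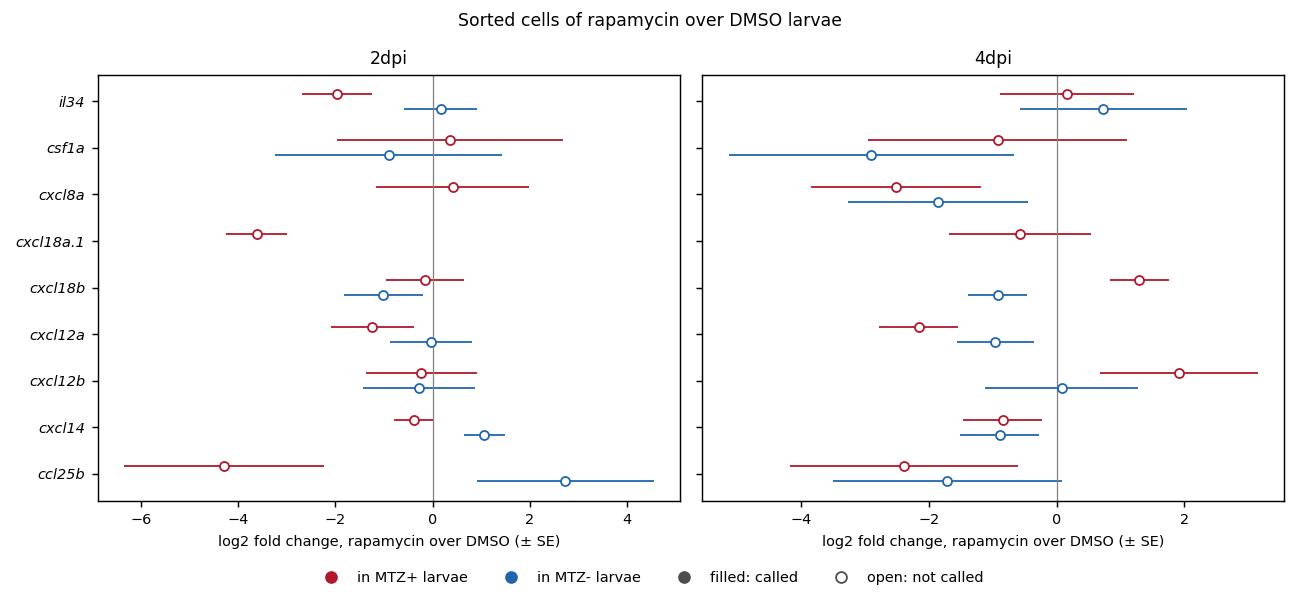
Log2 fold change of rapamycin over DMSO in MTZ+ (red) and MTZ- (blue) larvae at 2dpi and 4dpi, with SE; open points did not pass the call rule and fits with a group at 0 counts are not drawn. None is called, and the point farthest from 0 in SE units is cxcl18a.1 in MTZ+ at 2dpi, at -3.61 ± 0.63.

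At 4dpi the comparison of MTZ+ rapamycin with MTZ+ DMSO called 0 of the 9 genes by edgeR (2.64% of all genes in either direction) and 1 by DESeq2. An edgeR unadjusted p under 0.05 was found for 2 of the 9, and for 3357 of all 17515 genes tested. The median log2 fold change was -0.85, against -0.02 over all genes. cxcl12a was at 9.46 ± 6.64 CPM in MTZ+ rapamycin libraries and 42.5 ± 20.5 CPM in MTZ+ DMSO libraries, without overlap. Its log2 fold change was -2.16 ± 0.62 (edgeR unadjusted p = 0.00457, adjusted p = 0.0792; DESeq2 0.006), and -1.45 (0.392) without the exchanged libraries. The mesenchyme markers had sums of 4.57 to 17.4 CPM in MTZ+ rapamycin libraries and 44.3 to 73.6 CPM in MTZ+ DMSO libraries, and 1 of the 5 tested was called lower (2.64% of all genes in either direction). Their part in the value of cxcl12a was not tested.

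cxcl18b went the other way at 4dpi, at 681 ± 73.4 CPM in MTZ+ rapamycin libraries and 279 ± 85.8 CPM in MTZ+ DMSO libraries. It was higher in 3 of 3 pairs of the same replicate number and the groups did not overlap, but the log2 fold change of 1.29 ± 0.46 was not called (edgeR unadjusted p = 0.0155, adjusted p = 0.145; 1.498 and 0.278 without the exchanged libraries). cxcl12b was at 16.8 ± 14.0 CPM in MTZ+ rapamycin libraries and 4.43 ± 1.62 CPM in MTZ+ DMSO libraries. Its highest library, at 32.6 CPM, was an exchanged one, and the log2 fold change was 1.91 ± 1.24 with it and 1.09 without both (edgeR adjusted p = 0.448 with it). cxcl8a was at 2.09 ± 3.05 CPM in MTZ+ rapamycin libraries and 11.9 ± 4.91 CPM in MTZ+ DMSO libraries (-2.52 ± 1.34, edgeR adjusted p = 0.338; -4.87 and 0.249 without the exchanged libraries). il34, whose groups did not overlap at 2dpi, had a log2 fold change of 0.16 ± 1.05 at 4dpi (edgeR adjusted p = 0.957), and -0.35 without the exchanged libraries. cxcl18a.1 had -0.58 ± 1.12 (0.851), but without the exchanged libraries its means were 2.54 CPM in MTZ+ rapamycin and 2.55 CPM in MTZ+ DMSO libraries. Those means came from 0.892 and 4.18 CPM with rapamycin, which lie far apart, and from 2.93 and 2.18 CPM with DMSO. cxcl14 had -0.85 ± 0.62 (0.511), and -0.98 (0.599) without the exchanged libraries.

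In unablated larvae 0 of the 9 genes were called between rapamycin and DMSO at 2dpi (0.0855% of all genes) or at 4dpi (2.1%), by edgeR or by DESeq2. At each time 1 of the 9 had an edgeR unadjusted p under 0.05, as had 1323 of 17536 genes at 2dpi and 3066 of 17515 at 4dpi. At 2dpi this member was cxcl14, at 14.8 ± 8.52 CPM in MTZ- rapamycin libraries and 7.21 ± 0.608 CPM in MTZ- DMSO libraries, without overlap (1.06 ± 0.42, edgeR adjusted p = 0.543). At 4dpi it was cxcl18a.1, with 0 counts in MTZ- rapamycin libraries and 4, 0 and 2 counts in MTZ- DMSO libraries, too few for a fold change (edgeR unadjusted p = 0.0324, adjusted p = 0.235). cxcl18b had a log2 fold change of -0.93 ± 0.46 at 4dpi (edgeR unadjusted p = 0.0684, adjusted p = 0.328).

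The difference between the rapamycin effects in MTZ+ and MTZ- larvae was tested as an interaction. At 2dpi 0 of the 9 genes were called by edgeR (0.0228% of all genes). An edgeR unadjusted p under 0.05 was found for 2 of the 9, and for 1340 of all 17536 genes tested. The 2 were cxcl14 (-1.45 ± 0.59, adjusted p = 0.596) and ccl25b (-7.01 ± 2.74, adjusted p = 0.580). DESeq2 called none of the 9. il34 had an interaction of -2.13 ± 1.03 (edgeR adjusted p = 0.677), and no interaction could be estimated for cxcl8a and cxcl18a.1, whose MTZ- libraries were at or near 0 counts. At 4dpi 0 of the 9 genes were called by edgeR (3.32% of all genes), 1 had an edgeR unadjusted p under 0.05 (3361 of all 17515 genes) and DESeq2 called 1. Both were cxcl18b, with an interaction of 2.22 ± 0.65 (edgeR unadjusted p = 0.00531, adjusted p = 0.0872). Its adjusted p ran from 0.0158 with DESeq2 to 0.175 over the alternatives, and it was called without MTZ- rapamycin replicate 1 (2.96, adjusted p = 0.0246) but not without the exchanged libraries (2.42, 0.156). The interaction for cxcl18b compares a level that was higher with rapamycin in MTZ+ larvae with one that was lower in MTZ- larvae, and neither difference passed by itself.

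Between the times, 4dpi was compared with 2dpi in MTZ+ DMSO larvae. The times share no date in the labels, so time and date cannot be told apart. edgeR called 0 of the 9 genes (0.475% of 18939 genes), 2 had an edgeR unadjusted p under 0.05 (3104 of the 18939) and DESeq2 called 0. cxcl18b was at 279 ± 85.8 CPM at 4dpi and 804 ± 166 CPM at 2dpi (log2 fold change -1.53 ± 0.70, edgeR adjusted p = 0.285), and cxcl18a.1 was at 2.72 ± 0.476 CPM at 4dpi and 11.4 ± 2.27 CPM at 2dpi (-2.06 ± 0.90, 0.268). For both genes every 4dpi library was below every 2dpi library. The values without the exchanged libraries were -1.81 for cxcl18b and -2.16 for cxcl18a.1.

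cxcl12a and cxcl14 stood the other way between the times, at 42.5 ± 20.5 CPM at 4dpi and 16.4 ± 2.82 CPM at 2dpi for cxcl12a (1.37 ± 0.78, edgeR adjusted p = 0.398). For cxcl14 the levels were 180.4 ± 52.1 CPM at 4dpi and 94.96 ± 36.9 CPM at 2dpi (0.93 ± 0.57, 0.450). Without the exchanged libraries these values were 0.90 for cxcl12a (0.667) and 0.67 for cxcl14 (0.654). il34 had -0.53 (0.862), and -0.77 without those libraries. When the ablation effect with DMSO at 4dpi was set against that at 2dpi, edgeR called 0 of the 9 genes (2.63% of all genes). An edgeR unadjusted p under 0.05 was found for 2 of the 9, and for 3498 of all 18939 genes tested. The 2 were cxcl14 (-1.90 ± 0.81, adjusted p = 0.212) and cxcl18a.1 (adjusted p = 0.0596). DESeq2 called 1, cxcl18a.1 (adjusted p = 0.0156), which was also called without MTZ- DMSO replicate 2 at 4dpi (0.0432). The MTZ- DMSO libraries had 0 counts of cxcl18a.1 at 2dpi and 6 in all at 4dpi. The size of its change could therefore not be estimated, and these p rest on few counts. Without the exchanged libraries edgeR gave adjusted p of 0.206 for cxcl14 and 0.0697 for cxcl18a.1.

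The receptors of these ligands were mostly low in the sorted cells. Of 30 chemokine and Csf1 receptor genes, 17 were tested at 2dpi and 15 at 4dpi. With DMSO, 2 of the 17 were called lower in MTZ+ at 2dpi (9.9% of all genes) and 0 higher, and 4 of the 15 were called lower (9.14% of all genes) and 2 higher (14.3% of all genes) at 4dpi. The 2 lower at 2dpi and the 2 higher at 4dpi are close to those shares of all genes. The receptors called lower with DMSO were atypical receptors, which take up chemokines without signalling to move cells. ackr3b, the scavenger of Cxcl12a in zebrafish, averaged 10.2 CPM in MTZ+ DMSO libraries and 69.8 CPM in MTZ- DMSO libraries at 2dpi (-2.75 ± 0.41, edgeR adjusted p = 0.000459). At 4dpi it averaged 21.2 CPM in MTZ+ DMSO libraries and 46.5 CPM in MTZ- DMSO libraries (-1.05 ± 0.25, edgeR adjusted p = 0.00904; -0.91 without the exchanged libraries, which is under the fold needed for a call).

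ackr3a also fell at 4dpi, to 10.7 CPM in MTZ+ DMSO libraries, against 31.2 CPM in MTZ- DMSO libraries (-1.47 ± 0.48, edgeR adjusted p = 0.0381; -1.27 without the exchanged libraries), and its call was lost in 5 of 14 alternatives, with adjusted p up to 0.125. ackr4a, whose mammalian counterpart takes up CCL19, CCL21 and CCL25, fell by 4.57 ± 1.37 at 2dpi (edgeR adjusted p = 0.0270) and by 4.26 ± 0.82 at 4dpi (0.00343). The first of these calls was lost in 5 of 13 alternatives (up to 0.0683), and the second was kept in 14 of 14, the fit without the exchanged libraries included. ackr4b fell to 63.1 CPM in MTZ+ DMSO libraries at 4dpi, against 237 CPM in MTZ- DMSO libraries (-1.83 ± 0.32, edgeR adjusted p = 0.00229; -1.57 without the exchanged libraries). ackr4b, on the plus strand, overlaps acad11 on the minus strand, so reads of that pair cannot be told apart. Of the RPE marker genes, 9 of 9 fell at 2dpi (9.9% of all genes) and 4 of 9 at 4dpi (9.14%) with DMSO. Not all of the others fell at 4dpi. There the median of the mean levels of the 9 markers was 2442 CPM in MTZ+ DMSO and 1488 CPM in MTZ- DMSO libraries. The part of the RPE markers in these results was not tested.

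ackr3b was called lower with rapamycin at 4dpi both in MTZ+ larvae, at 10.4 CPM against 21.2 CPM with DMSO (-1.02 ± 0.25, edgeR adjusted p = 0.0481), and in MTZ- larvae, at 21.4 CPM against 46.5 CPM with DMSO (-1.09 ± 0.25, 0.0418). The MTZ+ call was lost with a replicate block (adjusted p = 0.0557) and without the exchanged libraries (-1.13, 0.156), and each of these calls was kept under 5 of the 14 and 13 alternatives. ackr4b (-1.22, edgeR adjusted p = 0.0201) and ccr8.1 (-1.46, 0.0123) fell with ablation under rapamycin at 4dpi, calls kept in 10 and 13 of 14 alternatives and without the exchanged libraries (0.0372 and 0.0477).

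The receptors called higher at 4dpi with DMSO were csf1ra, the receptor for Il34 and Csf1 on macrophages and pigment cells, and cxcr3.2. csf1ra had 247 counts over the MTZ+ DMSO libraries (1.13 to 6.26 CPM) and 1 count over the MTZ- DMSO libraries (edgeR adjusted p = 0.0106; 0.0238 without the exchanged libraries). cxcr3.2, a receptor of macrophages in zebrafish larvae, averaged 3.20 CPM in MTZ+ DMSO libraries and had 0 counts in MTZ- DMSO libraries (edgeR adjusted p = 0.0489). That call was lost in 9 of 14 alternatives, with a replicate block (0.0869) and without the exchanged libraries (0.0774) among them. The receptors of the neutrophil chemokines were near or at 0, with cxcr1 at a group mean of at most 0.103 CPM and cxcr2 at 0 counts in all 24 libraries. cxcr4b, the receptor of Cxcl12a, averaged 43.4 CPM in MTZ+ DMSO libraries and 25.6 CPM in MTZ- DMSO libraries at 4dpi (0.85, edgeR adjusted p = 0.614). It overlaps CR522881.1 on the same strand, so reads of that pair cannot be told apart. cxcr4a, csf1rb, ccr9a and ccr9b were not called, with group means of at most 0.630, 1.02, 4.01 and 0.152 CPM.

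Of 42 other chemokine ligands in the tables, 12 were tested at each time. With DMSO, 1 of the 12 was called higher in MTZ+ at 2dpi (11.3% of all genes), and 1 was called higher (14.3%) and 1 lower (9.14%) at 4dpi, no more than the shares of all genes. ccl19a.2 averaged 0.888 CPM in MTZ+ DMSO libraries and had 0 counts in MTZ- DMSO libraries at 2dpi (edgeR adjusted p = 0.0167), and it was also called higher under rapamycin (0.0266), a call lost in 6 of 12 alternatives (up to 0.0844). The gene lies within ccl19a.1 on the same strand, so reads of the pair cannot be told apart. ccl39.3 rose at 4dpi, to 2.98 CPM in MTZ+ DMSO libraries, against 0.298 CPM in MTZ- DMSO libraries (3.38 ± 0.74, edgeR adjusted p = 0.00634; 3.49 and 0.0209 without the exchanged libraries). ccl39.7 fell at 4dpi (-1.34 ± 0.47, edgeR adjusted p = 0.0483), a call lost in 10 of 14 alternatives, with a replicate block (0.0593) and without the exchanged libraries (0.140) among them.

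Among 10 other inflammatory cytokines, il11a and il11b, which are induced in regenerating zebrafish tissues, were called higher with ablation at both times and with both rapamycin and DMSO. In those comparisons 8.63% to 14.3% of all genes were called higher. il11b averaged 68.5 ± 11.2 CPM in MTZ+ DMSO libraries and had 0 counts in MTZ- DMSO libraries at 2dpi, and it averaged 35.4 ± 10.8 CPM in MTZ+ rapamycin libraries. il1b, the main early cytokine of inflammation, averaged 3.53 CPM in MTZ+ rapamycin libraries at 2dpi and had 5 counts over the MTZ- rapamycin libraries, and was called higher (5.88, edgeR adjusted p = 0.00686). With DMSO it averaged 6.12 CPM in MTZ+ and 0.963 CPM in MTZ- libraries at 2dpi and was not called (2.69 ± 1.05, 0.0818). mif fell with ablation with DMSO at 2dpi (-1.25 ± 0.32, edgeR adjusted p = 0.0125). It overlaps si:dkeyp-121d2.7 on the other strand, so reads of that pair cannot be told apart.

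Most leukocyte markers were low in these libraries and varied widely. The summed level of 10 macrophage and microglia markers was 0.678 to 26.4 CPM in MTZ+ DMSO libraries and 0.959 to 7.96 CPM in MTZ- DMSO libraries at 2dpi, with none of the 6 that were tested called. cd74a had 0 counts in both groups, and mpeg1.1, a macrophage marker, averaged 6.56 ± 10.0 CPM in MTZ+ and 2.72 ± 2.51 CPM in MTZ-. At 4dpi the summed level of the 10 markers was 3.98 to 41.9 CPM in MTZ+ DMSO libraries and 0 to 15.1 CPM in MTZ- DMSO libraries. Of the 8 that were tested, 1 was called higher, csf1ra (14.3% of all genes). With DMSO the sums overlapped between MTZ+ and MTZ- at both times. Their medians in MTZ+ and MTZ- were 8.18 and 6.19 CPM at 2dpi, and 16.4 and 1.02 CPM at 4dpi. The part of these markers in the values of the ligands was not tested. Under rapamycin the sums were 0.439 to 23.8 CPM in MTZ+ and 0.0886 to 0.824 CPM in MTZ- libraries at 2dpi, and 0.0319 to 61.9 CPM in MTZ+ and 0 to 9.84 CPM in MTZ- libraries at 4dpi. None of 7 markers shared by all leukocytes was called, and their sums were 4.91 to 98.2 CPM in MTZ+ DMSO libraries and 0.959 to 32.02 CPM in MTZ- DMSO libraries at 2dpi.

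Of 4 neutrophil markers, mpx, the neutrophil myeloperoxidase, moved with the chemokines at 2dpi. It averaged 8.60 ± 0.727 CPM in MTZ+ DMSO libraries and had 1 count over the MTZ- DMSO libraries, and 1 of the 2 neutrophil markers that were tested was called higher (11.3% of all genes). The others did not stand apart in that way: lyz averaged 0.240 CPM in MTZ+ DMSO libraries and 0.0114 CPM in MTZ- DMSO libraries, npsn had 1 and 0 counts, and nccrp1 averaged 24.002 CPM and 36.3 CPM. The summed neutrophil level was 29.2 to 35.5 CPM in MTZ+ DMSO libraries and 26.7 to 43.1 CPM in MTZ- DMSO libraries. With rapamycin at 2dpi mpx averaged 1.104 ± 0.295 CPM in MTZ+ libraries, below its level in MTZ+ DMSO libraries, as was cxcl18a.1, and it had 0 counts in MTZ- libraries. At 4dpi mpx averaged 0.662 CPM in MTZ+ DMSO libraries and had 0 counts in MTZ- DMSO libraries, and none of the 4 was called. The part of these markers in the values of cxcl8a, cxcl18a.1 and cxcl18b was not tested.

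Markers of other eye tissues also differed between the groups. Of 5 Müller glia markers, 4 were called higher in MTZ+ than in MTZ- larvae with DMSO at each time (11.3% of all genes at 2dpi and 14.3% at 4dpi). Under rapamycin 0 were called higher and 1 lower at each time (5.73% and 6.94% of all genes were lower). Their sums overlapped with DMSO at 2dpi, at 5052 to 7036 CPM in MTZ+ and 5428 to 10367 CPM in MTZ- libraries. Between MTZ+ rapamycin and MTZ+ DMSO libraries, 1 of 5 was called lower with rapamycin at 2dpi and 3 of 5 at 4dpi (0.53% and 2.64% of all genes in either direction). Their sums, of which glula held most, were 1732 to 2729 CPM in MTZ+ rapamycin libraries and 5052 to 7036 CPM in MTZ+ DMSO libraries at 2dpi, and 471 to 1989 CPM in MTZ+ rapamycin libraries and 8170 to 11387 CPM in MTZ+ DMSO libraries at 4dpi. In MTZ- DMSO libraries at 4dpi the sums were 9880 to 12527 CPM. slc1a2b, another of the 5, averaged 84.04 ± 11.2 CPM in MTZ+ rapamycin libraries and 297 ± 72.3 CPM in MTZ+ DMSO libraries at 2dpi. Other lists stood higher with rapamycin in MTZ+ larvae at 2dpi, without overlap. Over all genes in this comparison, 2374 of 17536 had an edgeR unadjusted p under 0.05 and 0.53% were called. The RPE sums were 38551 to 67918 CPM in MTZ+ rapamycin libraries and 16041 to 31592 CPM in MTZ+ DMSO libraries, with 8 of 9 markers at an unadjusted p under 0.05 and 0 called. The sums of 5 epidermis markers were 272 to 734 CPM in MTZ+ rapamycin libraries and 1.51 to 7.54 CPM in MTZ+ DMSO libraries, with 5 of 5 at an unadjusted p under 0.05 and 1 called. Those of 3 markers of neural crest pigment cells were 2655 to 3621 CPM in MTZ+ rapamycin libraries and 1149 to 2209 CPM in MTZ+ DMSO libraries. A single marker held most of these sums. The median of the mean levels of the 3 was 139 CPM with rapamycin, where 1 marker had 0 counts, and 93.0 CPM with DMSO. At 4dpi 3 of 5 retinal neuron markers and 2 of 8 photoreceptor markers were called higher in MTZ+ than in MTZ- larvae with DMSO (14.3% of all genes). The retinal neuron sums there were 112.0 to 172.8 CPM in MTZ+ DMSO libraries and 36.5 to 54.0 CPM in MTZ- DMSO libraries, and the photoreceptor sums were 458 to 1347 CPM and 86.7 to 497 CPM in the same groups. The part of these markers in the values of the 10 genes was not tested.

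**Figure D4:**
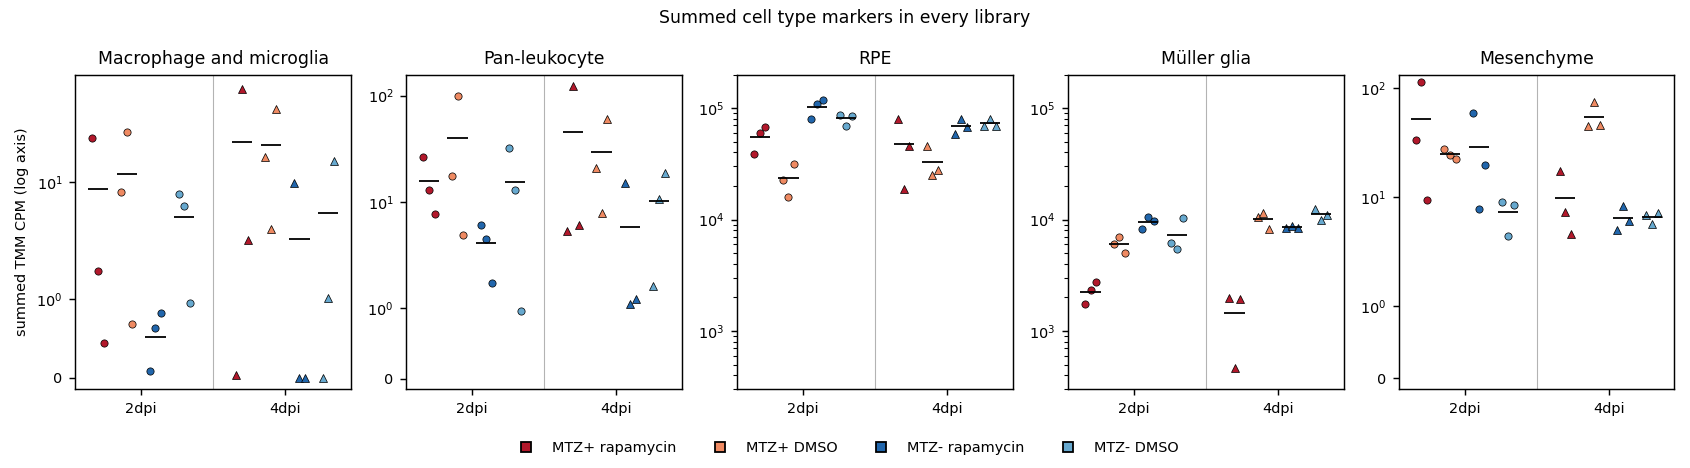
Summed TMM CPM of the marker lists for macrophages and microglia, all leukocytes, RPE, Müller glia and mesenchyme in every library, with MTZ+ left of MTZ- and rapamycin left of DMSO at each time. The RPE sums are lower in MTZ+ DMSO (16041 to 31592 CPM) than in MTZ- DMSO libraries (69058 to 87353 CPM) at 2dpi, and the macrophage sums of the MTZ+ and MTZ- DMSO libraries overlap at both times.

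The genes whose pattern over the 24 libraries was most like that of il34 were arpp21 (Pearson r = 0.970 on log2(CPM + 1)), zgc:153911 (0.960) and CABZ01077555.1 (0.960), among 14038 genes with a mean of at least 1 CPM. For cxcl18a.1 they were ptx3a (0.900), mmp9 (0.887) and CABZ01077555.1 (0.882). Within the set, il34 was most like cxcl18b (0.896), cxcl18a.1 (0.823) and cxcl14 (0.797), cxcl12a was at 0.752 with cxcl14, and il34 and ccl25b were at -0.0143. These coefficients describe libraries that share ablation, rapamycin and date, and the split between MTZ+ and MTZ- enters each of them.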

How the data were processed

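RNA from sorted eGFP+ cells was amplified with SMART-Seq HT and made into libraries with Nextera XT. The authors mapped reads to GRCz11 in CLC Genomics Workbench; its version, strand use and treatment of reads with several matches are not given in the sources used here. The deposited whole-number counts per gene were tested, and the deposited TPM, scaled by the authors to gene length and library, served to compare levels between genes and for the minimum in the call rule. The authors also deposited RPKM and a size-factor scaled signal, which were not used. Deposited columns of the authors' own comparisons (fold change, log2 fold change, p-value, adjusted p-value and the larger group mean, recorded as a score) were not used. Every column of sample values was mapped to a sample. Total counts were 20607731 to 37189527 per library, and floors of 3 counts and intervals cover counting error only.

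edgeR 4.0.16 (R 4.3.3, limma 3.58.1) fitted 12 libraries per time point as 4 groups with no block (TMM, filterByExpr with a minimum count of 10, robust glmQLFit), and all 24 libraries for the comparisons of times. Tests were two-sided and adjusted over all genes tested. Standard errors were taken from the fold change and F, and are not given where a group had 0 counts. Scripts were tested on simulated counts. Alternatives were DESeq2 1.42.0, other scalings, no filter, a replicate block, the compared groups alone, CPM in place of TPM in the call rule, leaving out each library, and leaving out the libraries with exchanged letters.

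Same-numbered libraries within a time point share a date in the labels, so the replicate number pairs them. Their deviations from group means had a mean correlation of 0.115 at 2dpi and 0.0339 at 4dpi over 18 pairs and 18939 genes, against -0.0573 and -0.0170 for pairs of unlike number.

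All 10 members are named. Other ligands, receptors and cytokines were named where called, at most 3 by adjusted p for each comparison and direction, along with the receptors of members, and the 3 genes most like il34 and cxcl18a.1 were named. The members and lists were chosen with earlier results of these data known. Gene positions (GRCz11) are those the deposited tables give.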

Additional observations from a re-analysis of the deposited data

How the results depend on the processing

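Over 101 fold changes of the 10 genes, 1466 values were recomputed under the alternatives: 36 lost a call, 16 gained one, and 0 reversed with a call on either side. Only fold changes called in the main fit could lose a call, so 36 is not to be read as a share of all 1466. Another 90 changed sign without a call in either fit. The count of genes called between MTZ+ and MTZ- at 2dpi stayed within 1.5 times of 5, with DMSO and with rapamycin. DESeq2 called 1 gene for rapamycin in MTZ+ at 2dpi and 1 at 4dpi, 5 for ablation under rapamycin at 4dpi, 1 for the interaction at 4dpi and 1 for the change of the ablation effect. For that change, the compared groups alone gave 2. Ablation with DMSO at 4dpi gave 3 without the exchanged libraries and 2 to 4 when 1 library was left out, and the interaction at 4dpi and the change of the ablation effect gave 0 to 1. The causes were not tested.

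With a replicate block, cxcl8a lost its call for ablation with DMSO at 4dpi (3.88, adjusted p = 0.0780) and cxcl14 gained one under rapamycin at 4dpi (2.00, 0.0149). The block changed no other call of the 10 genes. No paired analysis was possible for 4dpi over 2dpi because the dates are nested in the times.

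Over all genes, counts called by edgeR and by DESeq2 differed by over 1.5 times for rapamycin, at 93 and 571 in MTZ+ at 2dpi, 463 and 1209 in MTZ+ at 4dpi, 15 and 229 in MTZ- at 2dpi, and 367 and 1083 in MTZ- at 4dpi. The interaction had 4 and 165 at 2dpi and 581 and 1607 at 4dpi, 4dpi over 2dpi had 90 and 642, and the change of the ablation effect had 498 and 1307. With the block, rapamycin gave 214 in MTZ+ and 39 in MTZ- at 2dpi. The compared groups alone gave 0 for rapamycin in MTZ+ at 2dpi and for 4dpi over 2dpi. Without the exchanged libraries the counts were 56 for rapamycin in MTZ+ at 4dpi, 86 for the interaction, 341 for 4dpi over 2dpi and 1642 (2727 with them) for ablation under rapamycin at 4dpi.

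Low counts limit what can be said of csf1a, csf1b and ccl25b, which were near or below the floor of 3 counts in many libraries. Their counts also varied within groups, as for csf1a with 0 to 67 counts in MTZ- DMSO libraries at 2dpi. The part of depth was not tested. Fold changes against groups at 0 counts are lower bounds only, and these cover counting error but not the spread between libraries.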
